A study of Rattus norvegicus with 6 samples.

Results

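Heat shock proteins and cytosolic chaperones were described in rat primary astrocytes, brain glial cells grown in culture, that were treated with β-hydroxybutyrate (BHB) or left as controls. The genes were chosen by symbol, from a list of 34 names covering the HSP70, HSP40 (J-domain), HSP90 and small heat shock protein families, chaperonins and heat shock factors. Of these, 33 had a row among the 22608 genes of the deposited expression table, and Hspa1b did not. BHB is a ketone body that the liver releases in fasting, and the study was concerned with its effect on astrocytes and their glutamate uptake. There were 3 BHB libraries, at 2 mM per the table's column names, and 3 Control libraries of the same cells. The strain, age and sex of the rats, the time of treatment and what the controls received are not stated in the sources used. Whether libraries of one group represent separate cultures or animals is not stated either, so a p-value here reflects only the spread among these libraries, which may be technical.

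Chaperones bind unfolded protein chains and help them fold or pass them on for breakdown. J-domain proteins deliver clients to HSP70, which binds and releases them in a cycle driven by ATP, and HSP90 takes over some clients for their last folding steps. Heat shock factor 1, encoded by Hsf1, raises transcription of the inducible members when unfolded proteins build up, by binding repeated GAA units known as heat shock elements. In astrocytes, the small heat shock protein αB-crystallin (Cryab) is known for its abundance and for its association with the filament protein GFAP.

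Heat shock elements were looked for in the promoters because they are the DNA features through which Hsf1 is known to act, and the gene list did not use them. Promoter windows of 300 bases, from 250 before to 50 after each gene's start, came from RefSeq (build GRCr8), and 27 of the 33 measured members had one. Windows were searched for 3 units in alternating orientation, that is GAA, any 2 bases, TTC, any 2 bases and GAA, and for the reverse complement of this pattern. Both strands were thus covered, and matches to the pattern and its complement can overlap. A match was found for 5 members, Hspa8, Hsph1, Dnaja1, Hspd1 and Hspe1, and in 267 of 33469 windows in the whole table (0.798%). The matches of Hspd1 and Hspe1 are the same bases read from opposite strands. A match is a description of the letters and not a measured binding site, and a window without one says nothing about the factor. The stretches that hold the matches are shown 5′ to 3′ on each gene's own strand, with the matching bases in capitals.

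Hspa8, the 250 bases before the start (chr8:50080264-50080513, plus strand): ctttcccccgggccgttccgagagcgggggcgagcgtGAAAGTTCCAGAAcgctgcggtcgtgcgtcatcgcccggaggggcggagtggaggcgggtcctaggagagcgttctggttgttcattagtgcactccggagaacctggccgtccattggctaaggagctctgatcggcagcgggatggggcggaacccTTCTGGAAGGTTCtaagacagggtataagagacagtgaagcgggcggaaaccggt
Hspe1, the 150 bases before the start (chr9:64084177-64084326, plus strand): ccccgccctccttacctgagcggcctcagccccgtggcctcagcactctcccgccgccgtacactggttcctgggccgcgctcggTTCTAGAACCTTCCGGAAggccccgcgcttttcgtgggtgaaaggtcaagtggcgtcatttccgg
Hspd1, the far end of its upstream window (chr9:64084248-64084287, minus strand): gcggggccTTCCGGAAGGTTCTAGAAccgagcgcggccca
Hsph1, the 100 bases before the start (chr12:10427268-10427367, plus strand): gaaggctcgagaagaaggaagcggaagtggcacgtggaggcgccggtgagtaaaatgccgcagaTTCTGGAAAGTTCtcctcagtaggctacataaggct
Dnaja1, 30 bases just after the start (chr5:60638405-60638434, plus strand): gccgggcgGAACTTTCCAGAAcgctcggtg

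Hspa8 held a match 55 bases and another 213 bases before its start. Hspd1 and Hspe1, which encode the mitochondrial chaperonin HSP60 and its lid HSP10, are transcribed away from each other, with 289 bases between the annotated starts used here, although the full extents of the genes overlap in GRCr8. The overlapping matches begin 65 and 60 bases before the start of Hspe1.

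None of the chaperone genes tested differed between BHB and Control libraries at the threshold used, which does not show that none changed. Values are FPKM (fragment counts scaled by transcript length and library size), and differences were tested in limma on log2(FPKM + 1), a scale that understates changes of genes near 1 FPKM. Of the 33 genes, 32 reached 1 FPKM in at least 3 libraries and were tested with the other genes, 12373 in all, and p-values were adjusted over all of these. At an adjusted p under 0.05, 0 of 32 chaperone genes were called, where 0.0566% of all genes tested were (0.0485% higher and 0.00808% lower with BHB). The count at an unadjusted p under 0.05 was also 0 of 32, beside 5.59% of all genes. The BHB and Control libraries overlapped in every one of the 32, whereas the groups did not overlap in 10.9% of all genes tested. The lowest adjusted p among the members was 0.890 (Hspd1 and Hsp90aa1, limma). An exact two-sided permutation test of each gene gave 0.2 at the lowest (Hspd1 and Hsf1), and the smallest p that 3 against 3 allows is 0.1.

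The log2 fold changes, BHB over Control, ran from -0.09 (Hspa4) to 0.23 (Hspa1a). Of the 32, 13 were above 0 and 19 below, and 51.5% of all genes tested were above 0. The median over the members was -0.0092, against 0.0029 over all genes tested. The 95% interval of each of the 32 held 0. Leaving aside Hspa1a, the intervals of the other 31 lay between -0.27 and 0.36 on the log2 scale. Each is an interval for a single gene and not for all 31 together, and it reflects only the spread among these libraries. Together the 33 genes held 0.852% to 0.868% of the summed FPKM in BHB libraries and 0.866% to 0.885% in Control libraries.

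**Figure D1:**
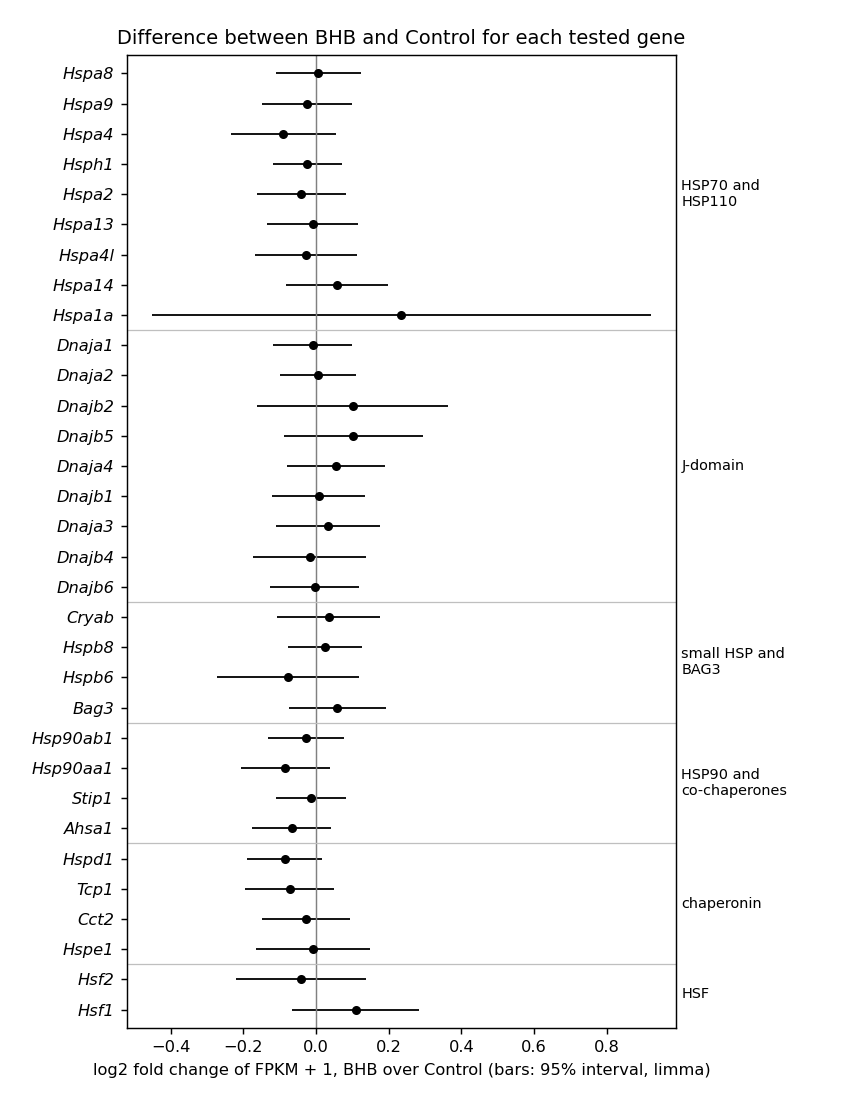
Log2 fold change of FPKM + 1, BHB over Control, for each of the 32 tested chaperone genes, grouped by family. Points are the limma estimates from 3 BHB and 3 Control libraries and bars are 95% intervals, and each bar crosses 0, with the widest for Hspa1a (-0.45 to 0.92).

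**Figure D2:**
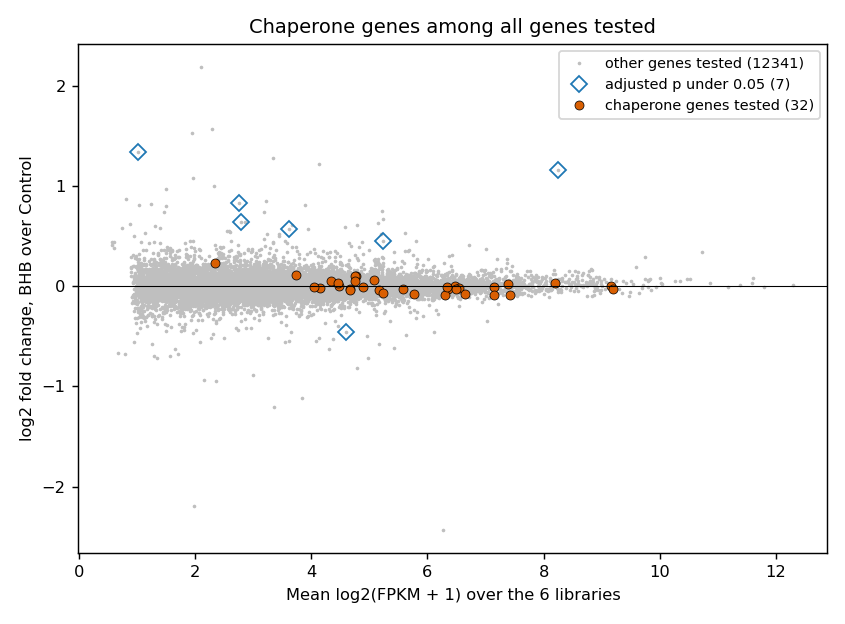
Log2 fold change of FPKM + 1, BHB over Control, against the mean log2(FPKM + 1) over the 6 libraries for the 12373 genes tested. Of the chaperone genes (filled circles), Hspa1a has the lowest level and lies at 0.23, and the others lie between -0.09 and 0.11. The 7 genes with an adjusted p under 0.05 (open diamonds) include no chaperone gene of the set.

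The HSP70 family, the central ATP-driven chaperones, included the scarcest gene of the set, Hspa12a, and the gene next in level to Hsp90ab1, Hspa8. Hspa8, the constitutive cytosolic HSC70, was at 549.4, 573.7 and 595.8 FPKM in BHB libraries and at 583.7, 590.9 and 536.8 FPKM in Control libraries. These ranges overlap almost fully, and the log2 fold change was 0.0068 (SE 0.0514, limma adjusted p = 0.989). Hspa1a, the stress-inducible HSP70, was far lower. It was at 2.67, 5.79 and 5.67 FPKM in BHB libraries and at 5.11, 4.40 and 2.09 FPKM in Control libraries. BHB 1 and Control 3 were low and the other 4 libraries high, so the groups overlapped, with means of 4.71 ± 1.77 and 3.86 ± 1.58 FPKM (SD, n = 3 each). The estimate for Hspa1a, 0.23 on the log2 scale (SE 0.30, 95% interval -0.45 to 0.92, limma adjusted p = 0.929), had the widest interval of the set. It was -0.06 without Control 3 and 0.53 without BHB 1, and was not called in either (limma adjusted p = 0.979 and 0.685). Within groups, its standard deviation on the log2 scale was larger than that of 99.2% of the 3840 genes with means of 2 to 8 FPKM. Hspa8 stood at 206, 99.1 and 105 times Hspa1a in BHB libraries and at 114, 134 and 257 times in Control libraries.

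Hspa1a and Hspa1b encode nearly identical proteins, and the sources used do not state how reads shared between such copies were counted. The Hspa1a row may therefore hold reads of both genes, or only part of them. In the later GRCr8 annotation, Hspa1a also overlaps the testis-type relative Hspa1l, which was listed at 0.168 to 0.357 FPKM in BHB and 0.230 to 0.509 FPKM in Control libraries. The strand setting of the counting is not given, so reads of overlapping genes cannot be told apart.

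Hspa4, an HSP110-type protein that releases nucleotide from HSP70, was at 81.3, 73.8 and 72.1 FPKM in BHB libraries and at 76.7, 79.0 and 86.4 FPKM in Control libraries. BHB 2 and BHB 3 were the lowest of the 6, but BHB 1 exceeded 2 controls, and the log2 fold change of -0.09 was not called (95% interval -0.23 to 0.05, limma adjusted p = 0.898). Its relatives Hsph1, which encodes HSP105, and Hspa4l averaged 46.2 and 24.3 FPKM in BHB against 46.9 and 24.8 FPKM in Control libraries. The mitochondrial HSP70 gene Hspa9 averaged 79.9 ± 4.76 FPKM in BHB and 81.3 ± 2.89 FPKM in Control libraries (SD, n = 3 each). Hspa2, known for its role in sperm formation, was present at 34.6 ± 1.36 and 35.6 ± 1.72 FPKM (BHB and Control, SD, n = 3 each). Hspa13, a microsomal member, and Hspa14, which works at the ribosome, averaged 28.4 and 19.6 FPKM in BHB against 28.6 and 18.7 FPKM in Control libraries. Hspa12a, a distant relative, was listed at 0.408 to 0.522 FPKM in BHB and 0.376 to 0.463 FPKM in Control libraries and was not tested.

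**Figure D3:**
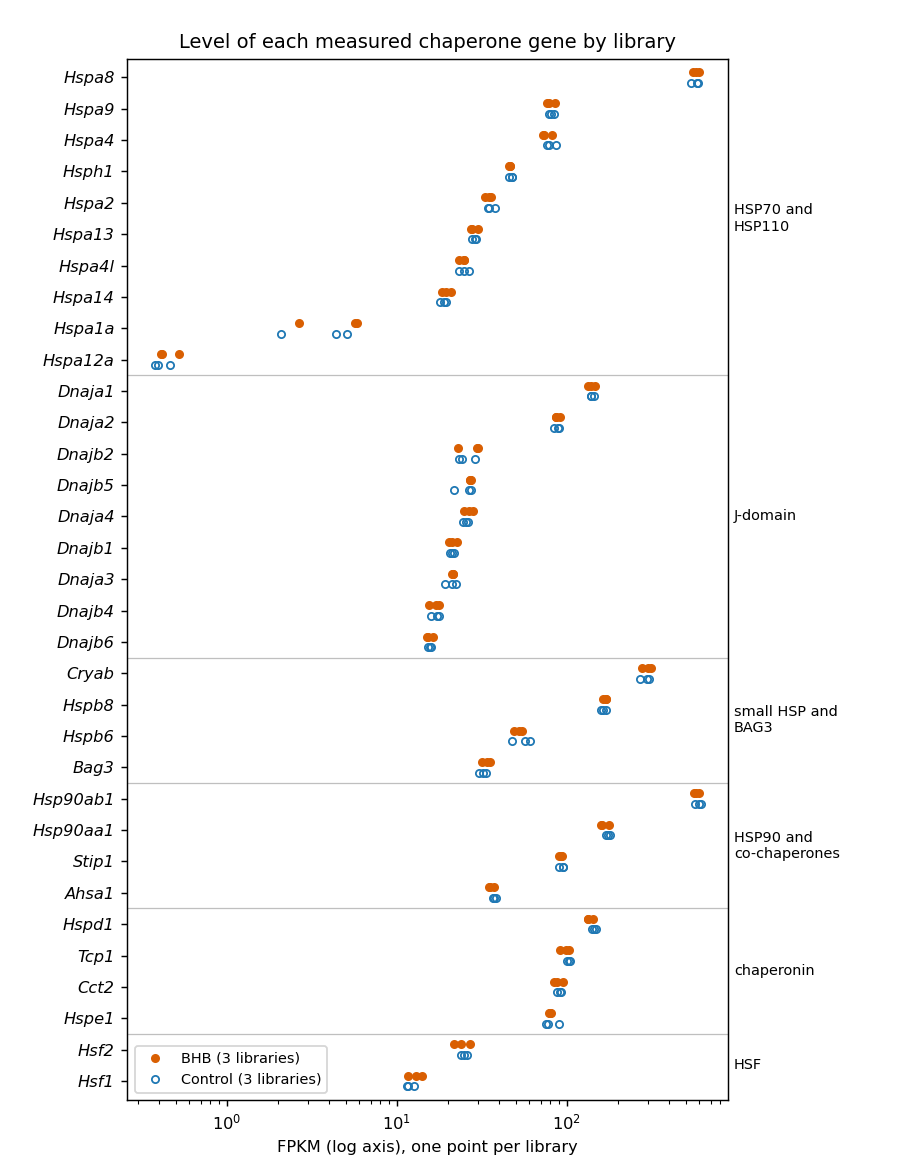
FPKM of the 33 measured chaperone genes on a log axis, with 1 point per library (filled, 3 BHB; open, 3 Control), ordered by family and level. Hsp90ab1 and Hspa8 are the highest and Hspa12a the lowest, and the 2 groups overlap for each of the 32 tested genes.

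J-domain proteins, which stimulate the ATPase of HSP70 and bring it clients, had 6 of 9 estimates above 0 (median 0.0081 on the log2 scale). The most abundant was Dnaja1, at 146.5, 139.6 and 132.7 FPKM in BHB libraries and at 144.1, 137.8 and 139.2 FPKM in Control libraries. The BHB libraries spread on both sides of the controls, and the log2 fold change was -0.0089 (limma adjusted p = 0.986). Dnaja2 followed at 86.1 to 91.6 FPKM in BHB and 84.5 to 90.1 FPKM in Control libraries. Dnajb1, the inducible HSP40 that is a classical heat shock gene, averaged 21.3 ± 1.13 FPKM in BHB and 21.2 ± 0.653 FPKM in Control libraries. Dnaja3 is mitochondrial, and Dnajb6 is a suppressor of polyglutamine aggregation. Their means and those of Dnaja4 and Dnajb4 lay between 15.5 and 26.4 FPKM in BHB and between 15.5 and 25.4 FPKM in Control libraries.

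The other 2 J-domain genes, singled out after their values were seen, differed between libraries in ways that did not follow treatment. Dnajb2, a chaperone enriched in neurons, was at 29.9, 29.5 and 22.7 FPKM in BHB and at 28.7, 24.2 and 23.3 FPKM in Control libraries. It lay between 28.7 and 29.9 FPKM in BHB 1, BHB 2 and Control 1 and between 22.7 and 24.2 FPKM in the remaining libraries. Dnajb5 was at 27.0, 27.2 and 26.9 FPKM in BHB and at 27.4, 26.7 and 21.7 FPKM in Control libraries, where Control 3 alone was low. Their log2 fold changes of 0.10 each were not called (limma adjusted p = 0.921 and 0.905), and without Control 3 that of Dnajb5 was 2.2e-04. RefSeq lists 17 transcripts for Dnajb2 and 4 for Dnajb5, and the sources used do not say how transcripts were combined into a gene's value.

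Small heat shock proteins hold unfolded proteins without using ATP, and Cryab was the most abundant of them. It was at 276.0, 314.0 and 299.5 FPKM in BHB libraries and at 294.4, 303.1 and 270.5 FPKM in Control libraries. BHB 1 and Control 3 were again the lowest, and the log2 fold change was 0.03 (95% interval -0.11 to 0.18, limma adjusted p = 0.949). Hspb8 averaged 167 ± 3.70 FPKM in BHB and 164 ± 6.65 FPKM in Control libraries (SD, n = 3 each). Its partner Bag3, the co-chaperone that couples HSP70 and Hspb8 to autophagy, was at 31.5, 35.2 and 33.8 FPKM in BHB and at 32.1, 33.5 and 30.6 FPKM in Control libraries. These values overlap, and the log2 fold change was 0.06 (limma adjusted p = 0.917). Hspb6 averaged 51.9 ± 2.87 and 55.0 ± 6.48 FPKM (BHB and Control, SD, n = 3 each) and shares its locus with Lin37 in GRCr8.

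All 4 genes of HSP90 and its co-chaperones had estimates below 0, and none was called. Hsp90ab1, the constitutive cytosolic HSP90, was at 563.4, 578.6 and 597.7 FPKM in BHB libraries and at 596.2, 612.8 and 564.3 FPKM in Control libraries. The groups spanned nearly the same range, and the log2 fold change was -0.03 (limma adjusted p = 0.946). Hsp90aa1, the more inducible isoform, was at 177.0, 158.1 and 160.2 FPKM in BHB libraries and at 169.1, 175.5 and 180.1 FPKM in Control libraries. BHB 2 and BHB 3 were below all controls but BHB 1 was not, and the log2 fold change was -0.08 (95% interval -0.21 to 0.04, limma adjusted p = 0.890). The β isoform gene stood at 3.18, 3.66 and 3.73 times the α gene in BHB libraries and at 3.53, 3.49 and 3.13 times in Control libraries. Ahsa1, which activates the ATPase of HSP90, was at 35.1, 37.4 and 34.8 FPKM in BHB and at 37.0, 37.2 and 38.4 FPKM in Control libraries. It overlapped through BHB 2 (log2 fold change -0.07, limma adjusted p = 0.898). Stip1, the adaptor HOP that links HSP70 to HSP90, was at 90.4 to 93.9 FPKM in BHB and at 89.7 to 95.001 FPKM in Control libraries.

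The chaperonins, which enclose a folding protein in a ring, also had all 4 estimates below 0. Hspd1, the mitochondrial HSP60, had the smallest p of the members. It was at 142.3, 132.7 and 132.8 FPKM in BHB libraries and at 140.7, 143.7 and 148.4 FPKM in Control libraries. BHB 1 lay above Control 1, and the log2 fold change of -0.09 had an unadjusted p of 0.0903 and an adjusted p of 0.890 in limma. Hspe1, the neighbour of Hspd1 with which it shares the match shown above, taken up after its values were seen, was at 78.8, 80.1 and 81.0 FPKM in BHB libraries and at 77.0, 90.2 and 75.1 FPKM in Control libraries. All 3 BHB values lay inside the range of the controls (log2 fold change -0.0094, limma adjusted p = 0.989). Hspd1 stood at 1.81, 1.66 and 1.64 times Hspe1 in BHB and at 1.83, 1.59 and 1.98 times in Control libraries.

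Tcp1 encodes a subunit of TRiC, the cytosolic chaperonin that folds actin and tubulin. It was at 103, 90.7 and 98.2 FPKM in BHB libraries and at 104.6, 102.3 and 99.8 FPKM in Control libraries. BHB 1 lay within the controls and BHB 2 and BHB 3 below them (log2 fold change -0.07, limma adjusted p = 0.898). Cct2, another subunit, averaged 88.7 ± 5.22 and 90.3 ± 2.91 FPKM (BHB and Control, SD, n = 3 each). With the other 6 subunit genes, the 8 genes of the ring had means between 80.6 and 119 FPKM in BHB and between 80.4 and 121 FPKM in Control libraries. Of the 8, 3 were above and 5 below 0, from -0.07 to 0.06, and 0 were called in limma (lowest adjusted p = 0.898).

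Of the heat shock factors, Hsf1 was at 11.7, 12.9 and 14.1 FPKM in BHB libraries and at 12.6, 11.4 and 11.6 FPKM in Control libraries. BHB 2 and BHB 3 were above all controls and BHB 1 was not, and the log2 fold change of 0.11 was not called (95% interval -0.06 to 0.28, limma adjusted p = 0.897). Hsf1 is regulated mainly at the protein level, which these data do not measure. Hsf2, a related factor, was at 27.0, 23.8 and 21.7 FPKM in BHB and at 24.7, 23.9 and 25.8 FPKM in Control libraries. Its BHB values spread beyond the controls on both sides (log2 fold change -0.04, limma adjusted p = 0.954).

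The 5 members with a heat shock element match had log2 fold changes of -0.09 to 0.0068, with 1 above and 4 below 0 and a median of -0.0094. The 22 with a window but no match had a median of -0.011, and none of either set was called.

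Some members moved together in a pair of libraries from different groups. BHB 1 and Control 3 were the 2 lowest libraries for 6 genes, Hspa1a, Hspa8, Cryab, Bag3, Hspb6 and Hsp90ab1. The same 2 libraries were the 2 highest for another 6, Hspa4, Hsp90aa1, Dnaja2, Dnajb4, Cct2 and Hsf2. That is 12 of 32 members, or 37.5%, beside 23.2% of all genes tested, where this pair was also the most frequent of the 15 possible pairs. BHB 2 and BHB 3 took the same extreme for 10 members (31.2%, beside 19.9% of all genes). Deviations from the group means of all genes tested correlated between BHB 1 and Control 3 at a Pearson r of 0.203, across genes, which are not independent replicates. The same r was 0.186 between BHB 3 and Control 1 and 0.164 between BHB 2 and Control 2. For every other pair of a BHB and a Control library it was below 0, from -0.151 to -0.0356. Deviations sum to 0 within each group, so these values are not independent. The pairs with r above 0 share no library, and no fit used them as a pairing. No label links BHB 1 and Control 3, and whether what they share bears on the members' values was not tested. With both left out, a choice made after seeing the data, limma called 0 of 32 members (3 at an unadjusted p under 0.05), and the estimate for Hspa1a was 0.23 on the log2 scale (limma adjusted p = 0.735).

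**Figure D4:**
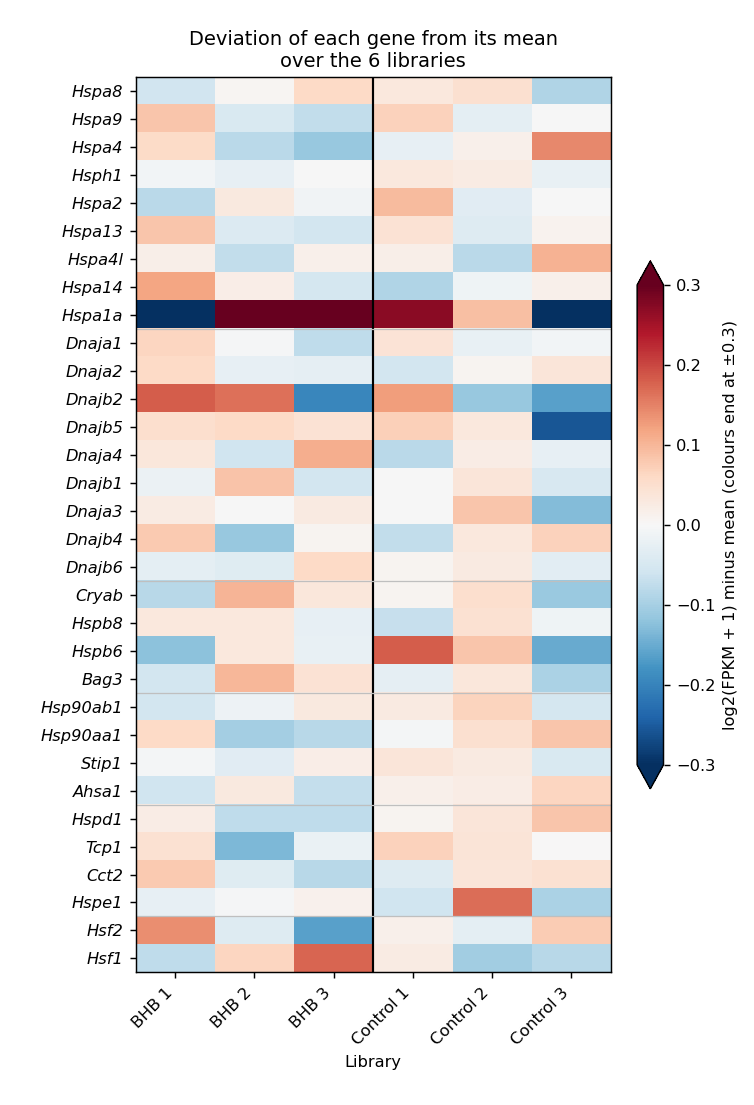
Deviation of log2(FPKM + 1) from its mean over the 6 libraries for the 32 tested chaperone genes, with BHB libraries left of the line and Control libraries right of it. Colours end at ±0.3, which Hspa1a exceeds, and BHB 1 and Control 3 share the direction of many genes.

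**Figure D5:**
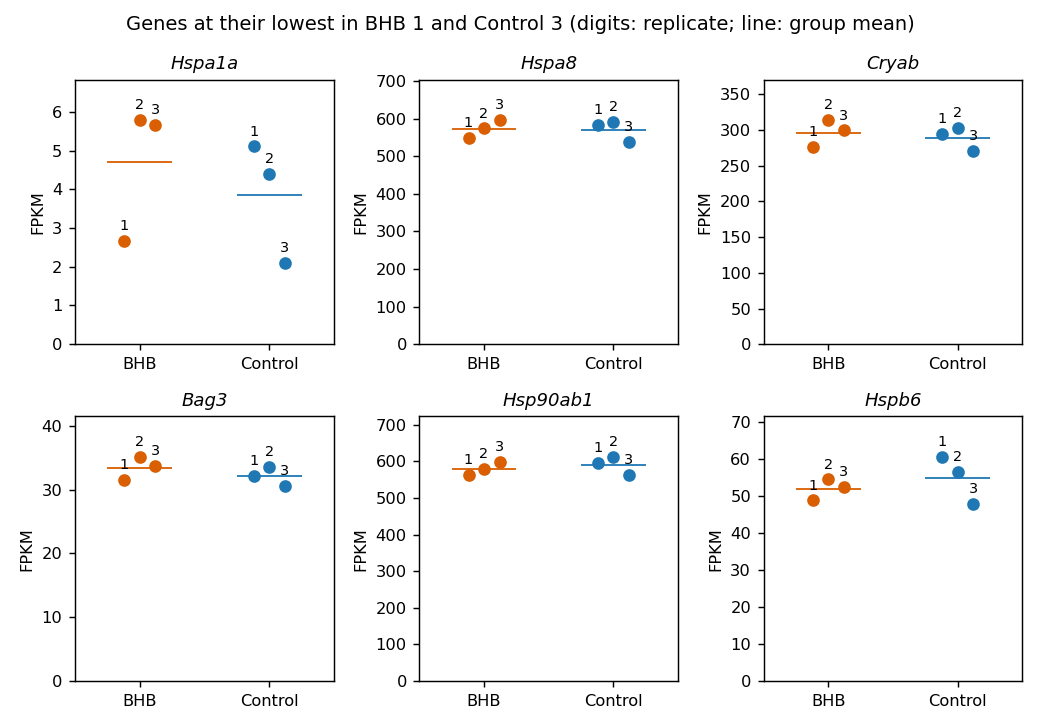
FPKM of the 6 genes that were lowest in BHB 1 and Control 3, with 1 point per library marked by its replicate number and a line at the group mean. The gap is wide for Hspa1a (2.67 and 2.09 FPKM in these libraries, 4.40 to 5.79 FPKM in the others) and narrow for the other 5.

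Other chaperone and co-chaperone genes, 70 in 10 lists, also held no call. Of these, 62 were tested and limma called 0, with 2, Cdc37 and Dnajc2, at an unadjusted p under 0.05 (5.59% of all genes tested). In 8 the groups did not overlap (10.9% of all genes tested), namely Hspa5, Hsp90b1, Bag5, Cdc37, Cdc37l1, Dnajc2, Cct7 and Clpb. The median log2 fold change of the 62 was 0.0031, with 32 above and 30 below 0. Cdc37, the adaptor that brings kinases to HSP90, averaged 77.5 and 72.2 FPKM in BHB and Control libraries (log2 fold change 0.10, limma adjusted p = 0.881), and 6 of the 15 HSP90 co-chaperone genes were above 0. Of 11 co-chaperones of HSP70, 9 were above 0, and Bag5, a nucleotide exchange factor, had the smallest p (log2 fold change 0.12, limma adjusted p = 0.890).

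A list of 10 other J-domain genes, which does not cover the whole family, had 9 tested. All 9 were below 0, from -0.53 to -0.00066, with a median of -0.07 and none called. Dnajc2, a chaperone of the ribosome, averaged 15.6 and 18.4 FPKM in BHB and Control libraries (log2 fold change -0.23, limma adjusted p = 0.881). Dnajc21, which acts in ribosome assembly, averaged 7.07 and 8.22 FPKM (log2 fold change -0.19, limma adjusted p = 0.881). Dnajc5, the synaptic vesicle chaperone CSPα, named after its values were seen, was at 6.85 FPKM in BHB 1 and between 23.7 and 24.98 FPKM in the other 5 libraries. BHB 2 and BHB 3 (24.98 and 24.17 FPKM) were above all controls (highest 24.09 FPKM). Its log2 fold change of -0.53 (limma adjusted p = 0.898) was thus below 0 through BHB 1 alone. Of 7 other small heat shock genes listed, the 4 tested were above 0 and none was called. Hspb1, which encodes HSP27, was at 213, 252 and 231 FPKM in BHB and at 215, 227 and 209 FPKM in Control libraries. Hspb2, which overlaps Cryab in GRCr8, averaged 8.12 and 6.66 FPKM (log2 fold change 0.26, limma adjusted p = 0.890). Cryaa, the lens α-crystallin, was listed at 0 in all 6 libraries.

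The endoplasmic reticulum relatives were abundant, and Hspa5, the chaperone BiP, averaged 343 and 353 FPKM in BHB and Control libraries (log2 fold change -0.04, limma adjusted p = 0.910). Hsp90b1, the HSP90 of the same compartment, was at 459.4, 438.8 and 454.9 FPKM in BHB and at 472.1, 490.5 and 472.1 FPKM in Control libraries. Its groups did not overlap, and the log2 fold change of -0.08 was not called (95% interval -0.17 to 0.0055, limma adjusted p = 0.881). Prefoldin subunits, which pass chains to TRiC, ran from -0.01 to 0.04, and mitochondrial chaperone and protease genes from -0.14 (Hscb) to 0.10 (Clpb), and 0 of either 6 were called.

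Summed FPKM per library ran from 361730 to 367448 in BHB and from 354565 to 365566 in Control libraries, and the depth in reads is unknown. Levels of the 10 astrocyte markers listed ranged widely. Fabp7 averaged 2304 and 2319 FPKM and Gfap 1517 and 1438 FPKM in BHB and Control libraries. Aldh1l1 averaged 28.1 and 28.8 FPKM and Slc1a2 6.06 and 5.83 FPKM (BHB and Control). The sums of the 10 were 5119 to 5135 FPKM in BHB and 4711 to 4953 FPKM in Control libraries, mostly from Fabp7 and Gfap. Only 1 of the 10, the glutamate transporter gene Slc1a3, passed the test and was higher with BHB. It averaged 455 FPKM in BHB and 203 FPKM in Control libraries and made up much of the gap between the sums. Of the 10 estimates, 6 were above 0 and 4 below. Immediate early genes, which respond quickly to stimuli, summed to 274.7 to 288.9 FPKM in BHB and 232.3 to 245.2 FPKM in Control libraries, with 2 of 14 called higher. Whether these shifts bear on the chaperone genes was not tested. Of markers of other brain cells, those of fibroblasts and mural cells summed to 4375 to 4725 FPKM in BHB and 4194 to 4568 FPKM in Control libraries, nearly all from Tagln and Acta2. Of the rest, Col1a1 and Pdgfrb averaged 100 and 26.2 FPKM in BHB and 98.8 and 26.8 FPKM in Control libraries. Dcn, Lum and Rgs5 reached at most 0.0324, 0.234 and 2.18 FPKM in any library. Microglia markers summed to 30.6 to 32.1 and 30.6 to 33.4 FPKM (BHB and Control), neuron markers to 90.1 to 93.03 and 91.3 to 95.4 FPKM, and oligodendrocyte markers to 91.9 to 95.8 and 88.9 to 94.7 FPKM. Most of the neuron sum came from Stmn2 and Tubb3, with Rbfox3 averaging 0.454 and 0.392 FPKM (BHB and Control). Most of the oligodendrocyte sum came from Cnp and Olig1, with Mbp averaging 1.33 and 1.25 FPKM and Sox10 0.271 and 0.260 FPKM. Endothelial markers, with Cldn5 at 0, summed to 2.55 to 3.74 and 2.84 to 3.13 FPKM, and ependymal markers, with Tmem212 at 0, to 31.3 to 34.1 and 34.3 to 37.6 FPKM (BHB and Control). Most of the endothelial sum came from Eng, averaging 2.44 and 2.25 FPKM, and nearly all of the ependymal sum from Foxj1, averaging 31.1 and 33.8 FPKM. Rsph1 averaged 1.71 and 1.99 FPKM and Dnah5 0.146 and 0.112 FPKM (BHB and Control). In bulk RNA, fewer cells of a type and less RNA per cell cannot be told apart.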

How the data were processed

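Poly(A) RNA of 3 BHB and 3 Control libraries was sequenced from rat primary astrocytes with the Illumina TruSeq v2 kit, per the labels' protocols. FPKM values of all 6 libraries, scaled by the authors to transcript length and mapped fragments, were deposited in a shared table. The submitters' processing notes name bcl2fastq 2.0, HISAT2, StringTie and DESeq2 and the build rn6, but not what each was used for. Annotation, strandedness of the counting and handling of shared reads are not stated in the sources used, and depth is unknown.

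Genes reaching 1 FPKM in 3 or more libraries were tested as log2(FPKM + 1) in limma 3.58.1 (R 4.3.3; lmFit, eBayes with trend), two-sided, with Benjamini-Hochberg adjustment over all 12373 genes and a threshold of 0.05. The fit was tested on simulated data with normal noise drawn independently for each library, and no limit on missed changes is taken from it. Exact permutation tests of single genes used scipy 1.17.1. The members and lists were chosen with earlier results of these data known. Given with every library were Hspa1a, Hsf1, Bag3, the 6 members with the smallest p and the most abundant of each family. Per list described, up to 3 genes with the smallest p were named, mostly by group means or fold changes. Alternatives were another pseudocount, no FPKM minimum, 2 scalings, no trend, a replicate block and leaving out each library. Promoter sequences and transcript numbers are from RefSeq GRCr8, a later build than rn6, and no deposited value was placed on it.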

Additional observations from a re-analysis of the deposited data

How the results depend on the processing

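In every alternative, 0 chaperone genes were called in limma, and the lowest adjusted p of a member was 0.685 (without BHB 1, tied among members that include Hspa1a, Hsf1, Hspa4 and Hspd1). At an unadjusted p under 0.05 there were 4 members without BHB 1, 3 with BHB 1 and Control 3 both left out, 1 each without BHB 3, without Control 3 and under quantile normalization, and 0 in the other alternatives. Of 416 member values under alternatives, 374 kept their direction and 42 turned. The count over all genes, 7, was 4 without the eBayes trend, 2 among genes with at most 6 decimals (chosen after seeing the data, with fewer genes tested) and 5 to 10 with 1 library left out.

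The deviations of libraries with the same number correlated at r = -0.0899 (replicates 1), 0.164 (replicates 2) and -0.151 (replicates 3) across genes. The labels do not say that equal numbers mark shared cultures, so the numbers were not taken as a pairing. A replicate block left 2 genes called and 0 members. Members above 0 numbered 8 of 18 among genes with at most 6 decimals and 10 to 17 with 1 library left out, and the member median was -0.0299 with BHB 1 and Control 3 left out and -0.0174 to 0.0069 with 1 left out. The log2 fold changes that turned were Hspa8 -0.0103, Dnaja2 -0.0117 and Dnajb1 -0.00833 under equal FPKM sums, Dnaja2 -0.00931 under quantile normalization, and Hspa4l 0.00257, Hspa8 -0.00644, Dnaja2 -0.00360, Dnaja3 -0.0284, Dnajb1 -0.00341 and Dnajb2 -0.0224 with both libraries left out. With 1 library left out, 17 members turned, with ranges of Cct2 -0.0735 to 0.00741, Cryab -0.0128 to 0.0852, Dnaja1 -0.0439 to 0.0266, Dnaja2 -0.0234 to 0.0251, Dnaja3 -0.0247 to 0.0818, Dnajb1 -0.0322 to 0.0379, Dnajb4 -0.0613 to 0.0354, Dnajb6 -0.0342 to 0.0138, Hsf2 -0.122 to 0.0289, Hspa13 -0.0527 to 0.0158, Hspa1a -0.0631 to 0.527, Hspa4l -0.0745 to 0.0179, Hspa8 -0.0363 to 0.0367, Hspa9 -0.0721 to 0.00631, Hspb8 -0.00418 to 0.0539, Hspe1 -0.0589 to 0.0719 and Stip1 -0.0387 to 0.00225. The cause was not tested. Depth in reads is unknown, so no limit from counting can be given.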
